A study of Mus musculus with 6 samples.

Results

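The 10 transcription factors described here, Tlx3, Tlx2, Runx1, Runx3, Cbfb, Prdm12, Pou4f1, Isl1, Drgx and Klf7, are core factors that set the fate of nociceptors and mechanoreceptors in the dorsal root ganglion (DRG). They were chosen by this role and found by Ensembl identifier, 10 of the 47937 rows of a table of read counts per gene, with Drgx listed in the annotation under its older name Prrxl1. All 10 passed the requirement of at least 10 counts over the libraries. RNA sequencing was done on DRGs taken at cervical, thoracic and lumbar levels, with 3 libraries from control mice and 3 from Tlx3cko mice, on a C57BL/6 background at about 2 months of age. The labels give the controls as wild type. The Tlx3cko mice are labelled Tlx3f/f;SNS-cre and carry the floxed Tlx3 allele together with Cre driven by Nav1.8 (Scn10a) sequences, which act in most nociceptors from late embryonic life on. Neurons without Nav1.8 keep the gene, and the RNA came from whole ganglia with neurons and glia together, so that fewer cells of a type and less RNA per cell cannot be told apart in these values. Which part of Tlx3 lies between the loxP sites is not given in the sources used here, and a count per gene can include reads from exons outside it.

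Sensory neurons of the DRG arise from neural crest cells and first share a common set of factors, Pou4f1 (Brn3a), Isl1, Drgx, Klf7 and the Tlx homeodomain proteins, which switch on Trk receptors and pan-sensory genes. Prdm12 is restricted to the nociceptor lineage and is required for it. Later, Runt factors divide the lineages: Runx1 directs nociceptors towards the non-peptidergic Ret+ fate and away from the peptidergic fate, whereas Runx3 acts in proprioceptors. Runt factors bind DNA together with the shared partner Cbfb, which does not bind DNA by itself.

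The sequences around the annotated starts of Tlx3 and of the Runt genes are shown first, because Tlx3 was the targeted gene, Runx1 had the largest change among the 10 factors, and Runx3 is its paralog. Each window comes from RefSeq on GRCm38.p6 and runs from 250 bases before the start to 50 bases after it, read 5′ to 3′ on the strand of the gene. Capitals mark the Runt letters TGTGGT, which read ACCACA on the other strand, and the GC box letters GGGCGG, which read CCGCCC on the other strand. These matches do not overlap here. The windows are Tlx3 at chr11:33203539-33203838 on the minus strand, the distal Runx1 start at chr16:92826025-92826324 and the proximal Runx1 start at chr16:92697280-92697579, both on the minus strand, and the distal Runx3 start at chr4:135120395-135120694 on the plus strand.
Tlx3: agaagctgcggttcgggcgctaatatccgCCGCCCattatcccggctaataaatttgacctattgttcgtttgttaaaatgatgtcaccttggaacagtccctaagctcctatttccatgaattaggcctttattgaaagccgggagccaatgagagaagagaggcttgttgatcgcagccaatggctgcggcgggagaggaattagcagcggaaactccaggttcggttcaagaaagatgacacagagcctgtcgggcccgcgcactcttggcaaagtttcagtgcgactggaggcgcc
Runx1 distal: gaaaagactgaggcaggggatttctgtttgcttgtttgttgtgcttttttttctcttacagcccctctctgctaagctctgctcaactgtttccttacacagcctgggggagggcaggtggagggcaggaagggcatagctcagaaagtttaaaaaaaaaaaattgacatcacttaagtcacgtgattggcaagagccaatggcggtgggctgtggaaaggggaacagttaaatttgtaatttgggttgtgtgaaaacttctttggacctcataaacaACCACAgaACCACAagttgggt
Runx1 proximal: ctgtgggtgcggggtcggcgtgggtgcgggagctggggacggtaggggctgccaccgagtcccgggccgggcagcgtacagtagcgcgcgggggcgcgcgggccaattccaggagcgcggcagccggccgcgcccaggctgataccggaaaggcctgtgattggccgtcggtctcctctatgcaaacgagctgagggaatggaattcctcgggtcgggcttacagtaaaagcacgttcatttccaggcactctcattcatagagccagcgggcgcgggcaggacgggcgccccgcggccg
Runx3 distal: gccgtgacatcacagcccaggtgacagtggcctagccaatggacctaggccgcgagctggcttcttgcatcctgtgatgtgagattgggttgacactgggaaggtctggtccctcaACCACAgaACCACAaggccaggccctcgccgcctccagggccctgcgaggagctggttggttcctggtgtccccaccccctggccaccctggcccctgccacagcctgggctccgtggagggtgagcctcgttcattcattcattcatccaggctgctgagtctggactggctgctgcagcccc

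The distal windows of Runx1 and Runx3 both held the run ACCACAGAACCACA, a pair of Runt letters with 2 bases between them. It lay at positions 28 to 41 from the start in Runx1 and at positions -134 to -121 in Runx3. The spaced pair ACCACANNACCACA, on either strand, was found in 7 of the 32851 promoter windows of the same length (0.0213%), and single Runt letters in 16.8% of them. Of the 7 windows, 2 are the distal Runx1 and Runx3 windows themselves, so this share is not independent of them. RefSeq gave 11 windows for 9 of the 10 factors. Of these 11 windows, 3 held Runt letters, 6 held a GC box (35.7% of all windows), and none held the homeodomain letters TAATTA (5.29% of all windows) or the letters TATAAA (13.6% of all windows). The deposited counts are per gene, so transcripts from the distal and proximal starts of Runx1 were not separated, and these matches describe letters only.

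Library totals ranged from 11458299 to 18775628 counts. Values below are normalized counts, that is, counts scaled by TMM factors to a mean effective library of 14970767 counts. The labelled tissue was checked with marker genes. The summed level of 6 pan-neuronal markers ranged from 120830 to 128030 normalized counts in the controls and from 125750 to 139190 in Tlx3cko DRGs, and all 6 were detected in every library. The spinal cord markers Mnx1, Chat, Slc6a5 and Olig2 summed to at most 5.25 normalized counts in any library. The 5 skeletal muscle markers summed to between 102 and 1567 normalized counts in the controls and between 1323 and 2785 in Tlx3cko DRGs, and the part of muscle RNA in the results below was not tested. The 4 markers of myelinated neurons, Nefh, Ntrk2, Ntrk3 and Pvalb, summed to between 27853 and 29879 normalized counts in control and between 35652 and 37499 in Tlx3cko DRGs, without overlap. Nefh, the heavy neurofilament of large neurons, made up most of this sum, with means of 21914.8 in control and 28076.5 in Tlx3cko DRGs. Of the 4 markers, Nefh and Pvalb passed the test as higher (log2 fold changes 0.36 and 0.59, adjusted p = 0.00532 and 0.0116, edgeR). Ntrk2 and Ntrk3 did not pass, and their groups overlapped. The part of these markers in the falls below was not tested. Control replicates 1 and 2 had 638 and 492 normalized counts of Xist and 0 counts of the Y-linked Ddx3y. At most 1.92 normalized counts of Xist, and between 339 and 419 of Ddx3y, were found in control replicate 3 and in each Tlx3cko library. The sexes were therefore not balanced, and the fold change and call of each factor and listed gene named below were also computed with a term for sex, which rests the genotype difference on control replicate 3 alone. With this term Nefh had a log2 fold change of 0.36 but lost its call, while Pvalb, at 0.78, kept its call. The labels do not say that each library came from a separate mouse, and p-values measure the spread between these libraries, whether or not each stands for a different animal.

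To ask which identity factors changed when Tlx3 was removed from nociceptors, the genotypes were compared with edgeR's quasi-likelihood test over all 20006 genes with enough counts. Runx1 and Tlx3 were lower in Tlx3cko DRGs, and none of the 10 factors was higher, at an adjusted p under 0.05. These 2 of 10 stand beside a background of 4.25% of all genes tested that passed the threshold in either direction, 2.56% lower and 1.69% higher. The median log2 fold change of the 10 factors was -0.08, and that of all genes tested was -0.00. Groups did not overlap for 5 of the 10 factors, 4 of them lower and 1 higher in Tlx3cko, while 19.7% of all genes tested did not overlap, 10.8% lower and 8.87% higher. For 1 gene in 3 libraries per group, the smallest two-sided p of an exact permutation test is 0.1.

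Tlx3, the targeted homeodomain gene on chromosome 11 (33200752 to 33203589, minus strand, 1 annotated transcript), had 1973, 2256 and 1941 normalized counts in control replicates 1, 2 and 3. The Tlx3cko replicates had 1652, 1380 and 1452. All Tlx3cko values lay under all control values, with the closest Tlx3cko value in replicate 1. The Tlx3cko mean was 72.7% of the control mean, a log2 fold change of -0.46 (95% interval -0.66 to -0.26, adjusted p = 0.0122, edgeR). The fall was lost as a call with the sex term (log2 fold change -0.38, adjusted p = 0.223, edgeR) and when control replicate 2, or replicate 2 or 3 of Tlx3cko, was left out (adjusted p = 0.0606, 0.0910 and 0.0706, edgeR). Over all 14 alternatives the adjusted p of Tlx3 ranged from 3.25e-05 to 0.223.

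Tlx2, the paralog of Tlx3 on chromosome 6 that is also expressed in neural crest-derived neurons, had 1935, 1949 and 1406 normalized counts in the controls and 1781, 1583 and 1589 in Tlx3cko DRGs. The Tlx3cko values fell inside the range of the controls, which was wide because control replicate 3 was low. The log2 fold change was -0.09 (95% interval -0.34 to 0.16, adjusted p = 0.810, edgeR), and with the sex term it was 0.23. Tlx1, the other member of the family, had 0 counts in all 6 libraries.

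**Figure D1:**
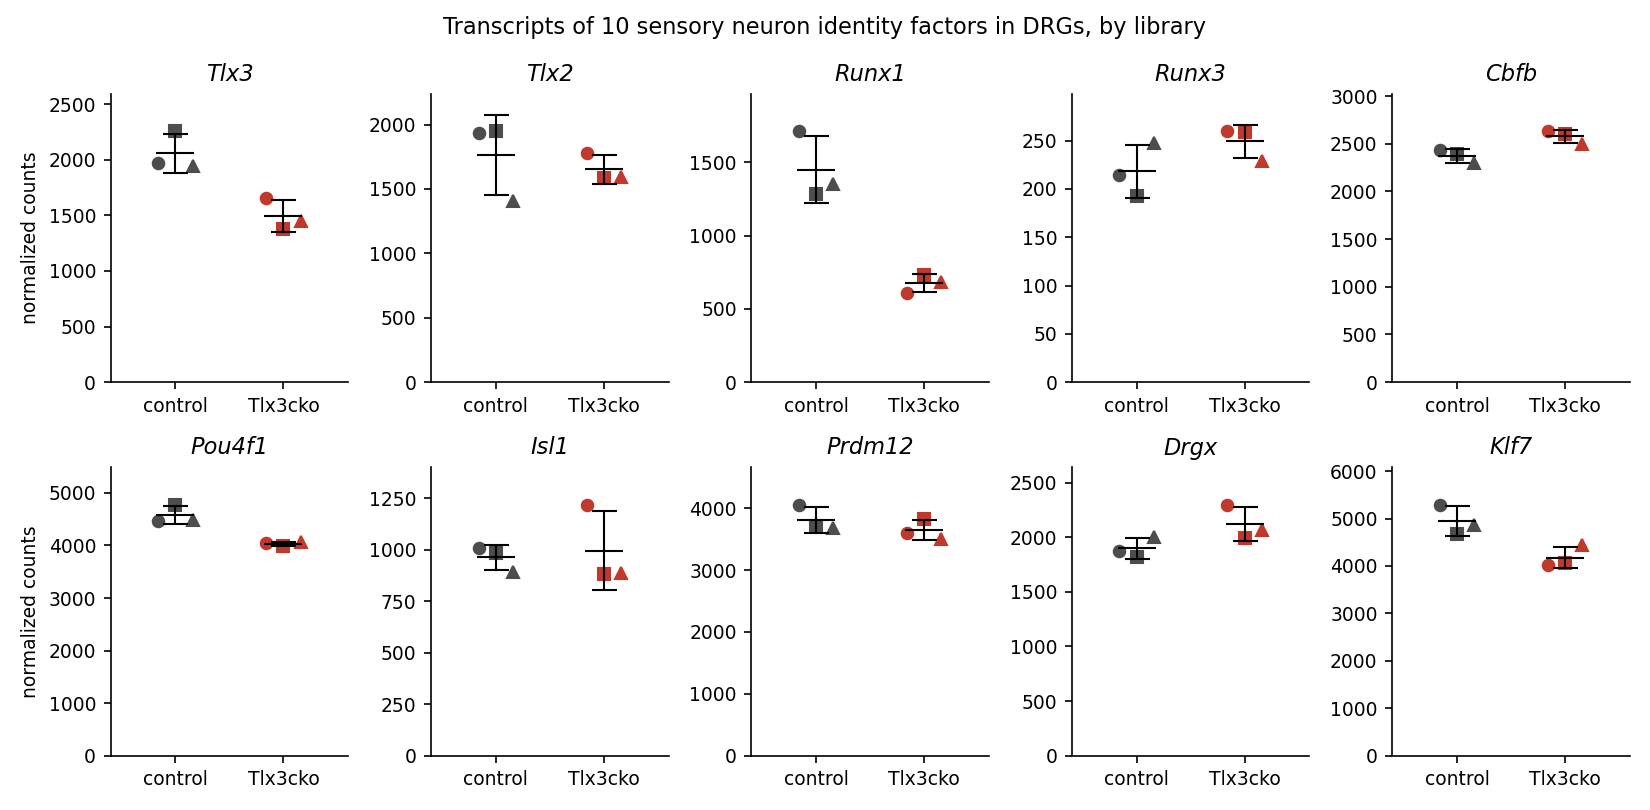
Normalized counts (vertical axis, starting at 0) of the 10 factors in each library, control in grey and Tlx3cko in red, with circles, squares and triangles for replicates 1, 2 and 3, bars at the mean and whiskers of 1 SD (n = 3). Runx1 is the factor with the widest gap between the groups, from at most 731 in Tlx3cko to at least 1284 in control DRGs, while Tlx3 keeps 72.7% of its control mean.

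Runx1, the Runt factor of non-peptidergic nociceptors on chromosome 16 (92601466 to 92826149, minus strand), had 1714, 1284 and 1355 normalized counts in control replicates 1, 2 and 3. The Tlx3cko replicates had 610, 731 and 683. The groups were far apart, and the highest Tlx3cko library was well under the lowest control. The mean was 1451 ± 231 in control and 675 ± 60.8 in Tlx3cko DRGs (SD, n = 3), so that 46.5% of the control level was left. The log2 fold change was -1.11 (95% interval -1.36 to -0.85, adjusted p = 0.00011, edgeR). Over all 14 alternatives it stayed between -1.19 and -0.97 with an adjusted p of at most 0.00444, the value under the sex term.

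Runx3, the Runt factor of proprioceptors on chromosome 4, was the least abundant of the 10 factors. It had 215, 192 and 247 normalized counts in the controls and 260, 259 and 229 in Tlx3cko DRGs, and the groups overlapped. Its log2 fold change was 0.19, with a 95% interval of -0.13 to 0.50 (adjusted p = 0.649, edgeR), so a change of the size seen for Runx1 lies outside the interval while a modest rise does not. Cbfb, the shared partner on chromosome 8, had 2434, 2393 and 2293 normalized counts in the controls and 2632, 2605 and 2499 in Tlx3cko DRGs. Every Tlx3cko value of Cbfb was above every control value, but by little, with a log2 fold change of 0.12 (95% interval -0.04 to 0.28, adjusted p = 0.519, edgeR). Cbfb did not pass the threshold in any of the 14 alternatives.

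Of Pou4f1, Klf7, Prdm12, Isl1 and Drgx, none passed the threshold. Pou4f1, the POU homeodomain factor Brn3a on chromosome 14, had 4467, 4777 and 4488 normalized counts in the controls and 4039, 3994 and 4064 in Tlx3cko DRGs. The Tlx3cko libraries were close to each other and all under the controls. The Tlx3cko mean was 88.1% of control, with a log2 fold change of -0.18 (95% interval -0.33 to -0.03, adjusted p = 0.206, edgeR). Klf7, a Kruppel-like zinc finger factor of neuronal outgrowth and survival, had 5292, 4684 and 4859 normalized counts in the controls and 4022, 4063 and 4432 in Tlx3cko DRGs. Here too the groups did not overlap, and the mean was 84.4% of control (log2 fold change -0.25, 95% interval -0.41 to -0.08, adjusted p = 0.108, edgeR). For both genes the unadjusted interval leaves out 0, but the call over all genes was not reached in any of the 14 alternatives, where the adjusted p was at least 0.187 for Pou4f1 and 0.0587 for Klf7. By the gene models, 39.4% of the Klf7 exon sequence lies under genes on the other strand, mostly Gm26649, which had between 7058 and 11293 normalized counts. The library kit named in the methods does not mark strand, so reads of Klf7 and of this gene in the shared bases cannot be told apart.

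Prdm12, the PR-domain regulator of the nociceptor lineage on chromosome 2, had 4058, 3707 and 3679 normalized counts in the controls and 3605, 3819 and 3506 in Tlx3cko DRGs. The groups overlapped, and the log2 fold change of -0.07 had a 95% interval of -0.23 to 0.09 (adjusted p = 0.780, edgeR). Of its exonic bases, 8.09% lie under a gene on the other strand. Isl1, a LIM homeodomain factor on chromosome 13, had 1010, 985 and 893 normalized counts in the controls and 1219, 882 and 887 in Tlx3cko DRGs. The Tlx3cko values spanned the controls because replicate 1 was high, and the sign of the small change (log2 fold change 0.05, 95% interval -0.22 to 0.32, adjusted p = 0.912, edgeR) turned to -0.12 without that library. Drgx, a paired-type homeodomain factor of DRG and dorsal horn neurons, had 1873, 1822 and 2007 normalized counts in the controls and 2299, 1996 and 2071 in Tlx3cko DRGs. Tlx3cko replicate 2 lay under control replicate 3, and the log2 fold change was 0.16 (95% interval -0.02 to 0.34, adjusted p = 0.423, edgeR).

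A wider list of 34 paralogs, cofactors and neurogenic factors was read from the same comparison to see how the families of these factors behaved. Of the 32 that could be tested, 6 were lower and 2 were higher in Tlx3cko DRGs past the threshold and 24 did not pass. Among all genes tested, 2.56% were lower and 1.69% higher past it. The median log2 fold change of the list was -0.03, beside -0.00 for all genes tested. Neurog2, a neurogenic factor of early sensory precursors, had at most 1 count in any library and was not tested. With the sex term 4 were lower and 2 higher. Insm1, a zinc finger factor of neuroendocrine differentiation, had 418, 430 and 326 normalized counts in the controls and 153, 159 and 144 in Tlx3cko DRGs. This was the largest fall of the list (log2 fold change -1.36, standard error 0.15, adjusted p = 0.000114, edgeR), and the groups were far apart.

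Isl2, the LIM homeodomain paralog of Isl1, fell where Isl1 did not pass the test. It had 3939, 3314 and 3176 normalized counts in the controls and 2077, 1942 and 1857 in Tlx3cko DRGs, and every control was above every Tlx3cko library (log2 fold change -0.83, standard error 0.09, adjusted p = 0.000143, edgeR). Pou4f2 (Brn3b), the paralog of Pou4f1 known from retinal ganglion cells, had 344, 411 and 472 normalized counts in the controls and 218, 222 and 241 in Tlx3cko DRGs (log2 fold change -0.85, standard error 0.14, adjusted p = 0.00302, edgeR). Pou4f3 (Brn3c) did not pass, with a log2 fold change of 0.29 (adjusted p = 0.189, edgeR). Klf5, a Kruppel-like factor, had 561, 426 and 501 normalized counts in the controls and 192, 278 and 272 in Tlx3cko DRGs, with a log2 fold change of -1.01 (adjusted p = 0.00215, edgeR). Isl1, Pou4f1 and Klf7, the members of these families among the 10 factors, did not pass the test. Tle4, a Groucho corepressor, and Casz1, a zinc finger factor, named after their values were seen to complete the calls, had log2 fold changes of -0.43 and -0.45 (adjusted p = 0.0325 and 0.0150, edgeR). These were the calls lost with the sex term (adjusted p = 0.0867 and 0.290, edgeR). Tle4 also lost its call with the replicate block (adjusted p = 0.0624, edgeR). The same held without each single library other than Tlx3cko replicate 2 (adjusted p of at most 0.175, edgeR). Casz1 also lost its call without control replicate 2 or replicate 1 or 3 of Tlx3cko (adjusted p of at most 0.0903, edgeR).

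Meis2, a TALE homeodomain factor, rose from 463, 319 and 313 normalized counts in control to 661, 596 and 666 in Tlx3cko DRGs (log2 fold change 0.82, standard error 0.15, adjusted p = 0.00534, edgeR). Cbfa2t3, a corepressor of the ETO family, rose from a mean of 113 to 192 normalized counts (log2 fold change 0.76, adjusted p = 0.0470, edgeR). Cbfa2t3 kept its call when control replicate 1 was left out, but lost it without any other single library (adjusted p between 0.0772 and 0.155, edgeR). Runx2, the Runt factor of bone, did not pass (log2 fold change -0.72, standard error 0.31, adjusted p = 0.299, edgeR) at between 27 and 96 counts per library. The abundant cofactors Tle1, a Groucho corepressor, Ldb1, which bridges LIM factors, and Ehmt2, a histone methyltransferase that works with Prdm12, had log2 fold changes of -0.20, 0.08 and -0.03 and did not pass (adjusted p = 0.343, 0.785 and 0.936, edgeR).

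**Figure D2:**
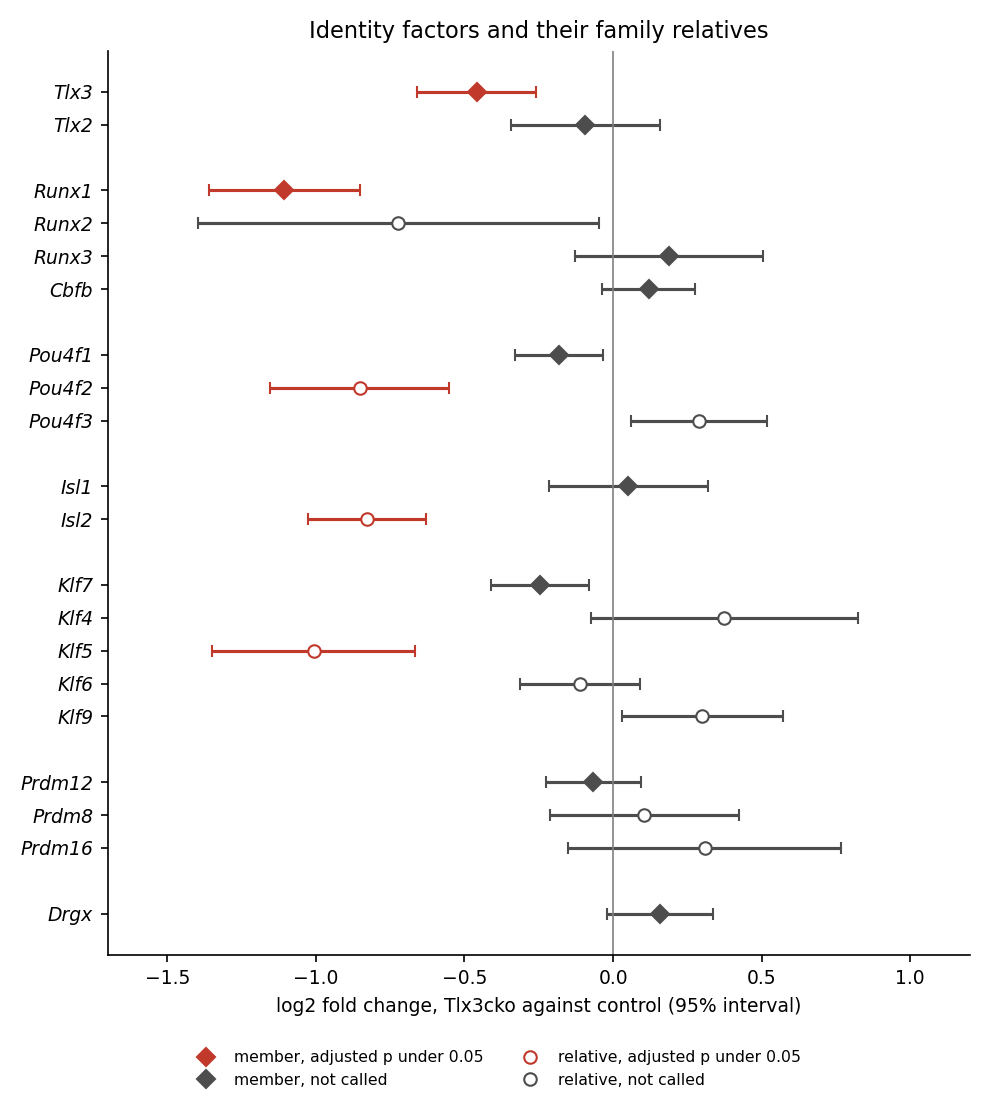
Log2 fold changes of Tlx3cko against control DRGs (horizontal axis) with 95% intervals from edgeR for the members (filled diamonds) and those of the relatives that are paralogs in the Runx, Pou4f, Isl, Klf and Prdm families (open circles), red where the adjusted p is under 0.05. Runx1 at -1.11 and Tlx3 at -0.46 are the members in red, and Isl2 at -0.83, Pou4f2 at -0.85 and Klf5 at -1.01 are the paralogs in red.

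Ratios of 2 transcripts within a library do not depend on its depth, and were used to compare members of a family directly. The pairs that hold Isl2, Pou4f2 and Klf5 were chosen after their values were seen. The Runx1 to Runx3 ratio was 7.98, 6.67 and 5.48 in the controls and 2.35, 2.83 and 2.98 in Tlx3cko DRGs, with a log2 difference of -1.29 (standard error 0.19). The Runx1 to Cbfb ratio fell by 1.22 on the log2 scale (standard error 0.14), from a mean of 0.611 to 0.262. In each case the groups stood apart, with p = 0.1 in the exact two-sided permutation test, the smallest it can give here. The Tlx3 to Tlx2 ratio was 1.02, 1.16 and 1.38 in the controls and 0.928, 0.872 and 0.913 in Tlx3cko DRGs, so that Tlx3 had more counts than its paralog in every control and fewer in every Tlx3cko library. The Isl2 to Isl1 ratio was 3.61 ± 0.271 in control and 2.00 ± 0.263 in Tlx3cko DRGs (SD, n = 3 each), and the Pou4f2 to Pou4f1 ratio was 0.0894 ± 0.0144 and 0.0562 ± 0.00281. The Klf5 to Klf7 ratio was 0.100 ± 0.00802 in control and 0.0592 ± 0.0105 in Tlx3cko DRGs. All of these pairs were apart between the groups.

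Scn10a, whose sequences drive the Cre, encodes the sodium channel Nav1.8 and marks the cells in which Tlx3 was removed. Against it the fall of Tlx3 was larger, with a Tlx3 to Scn10a ratio of 0.0854, 0.0892 and 0.0801 in the controls and 0.0531, 0.0393 and 0.0457 in Tlx3cko DRGs, a log2 difference of -0.89 (standard error 0.13). Scn10a itself was higher in Tlx3cko DRGs, so this ratio moves with both genes. By the labels only the Tlx3cko mice carry the Cre with Scn10a sequences, and its part in the Scn10a counts was not tested. Scaled to the summed pan-neuronal markers, Tlx3 and Runx1 changed by -0.53 and -1.17 on the log2 scale (standard errors 0.06 and 0.19), near their values per library. Pou4f1 and Klf7 also stayed apart between the groups on this scale, with log2 differences of -0.26 and -0.32, whereas Cbfb no longer did (0.05). For the other members the groups overlapped. The summed markers were themselves somewhat higher in Tlx3cko DRGs (125750 to 139190 normalized counts, beside 120830 to 128030 in control), so this scale moves every member down. The share of all genes that stand apart on this scale was not computed.

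**Figure D3:**
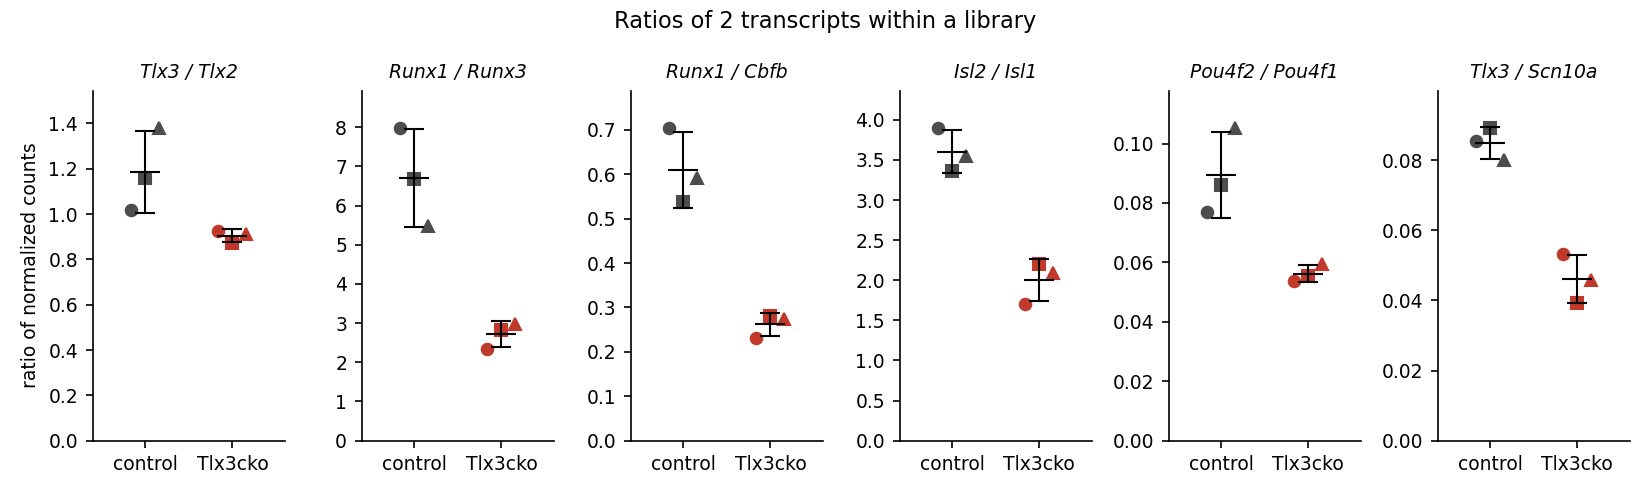
Ratios of the normalized counts of 2 genes within each library (vertical axes, starting at 0), control in grey and Tlx3cko in red, with circles, squares and triangles for replicates 1, 2 and 3, bars at the mean and whiskers of 1 SD (n = 3). All 6 ratios are lower in every Tlx3cko library than in any control, with the Runx1 to Runx3 ratio going from at least 5.48 to at most 2.98.

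Genes that textbook knowledge places under Runx1 in nociceptors were then read from the same fit, 11 listed as raised by it and 3 as held down. The listed directions, also those of the Mrgpr genes, were not tested in these data or at this age. From earlier work the authors also describe Trpa1, Trpm8, Mrgprd, Mrgprb4 and Scn11a (Nav1.9) as requiring Tlx3. Whether the changes below go through Runx1 was not tested. Of the 11 genes listed as raised, 9 were lower in Tlx3cko DRGs, none was higher and 2 did not pass. Their median log2 fold change was -0.99, beside -0.00 for all genes tested. Among all genes tested, 2.56% were lower and 1.69% higher past the threshold. The list was chosen with earlier results of these libraries known, so the count is not independent evidence. Mrgprb4, a receptor of touch-sensitive C fibres, had 190, 181 and 261 counts in control and 0, 2 and 0 counts in Tlx3cko libraries, which is 0.356% of control by total counts (exact 95% interval 0.0430 to 1.29, counting error only). P2rx3, the ATP-gated channel of non-peptidergic neurons, had 3121, 3729 and 4331 normalized counts in the controls and 2112, 1870 and 1654 in Tlx3cko DRGs (log2 fold change -0.99, adjusted p = 0.000259, edgeR). Gfra2, the neurturin receptor subunit that pairs with Ret, had 2216, 3424 and 3351 normalized counts in the controls and 1169, 1252 and 1221 in Tlx3cko DRGs, 40.5% of control.

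The Mrgpr receptors Mrgpra3, Mrgprb5 and Mrgprd had log2 fold changes of -4.04, -3.90 and -1.81, the first of a size that leaves 6.04% of the control mean. Mrgprb5 rested on few reads, between 32 and 64 counts in control and between 1 and 5 in Tlx3cko libraries. Not every Mrgpr gene is in this list, and the paper reports MrgprC11, which is not, as increased in Tlx3cko mice. The other calls of this list, named after their values were seen, were Scn11a, Trpm8 and Ret, with log2 fold changes of -0.79, -0.44 and -0.33 (adjusted p = 0.00011, 0.0462 and 0.0382, edgeR). Scn11a, a sodium channel of nociceptors, kept its call in all 14 alternatives. Trpm8, the cold channel, lost its call without any single library and with the replicate block (adjusted p between 0.0532 and 0.210, edgeR). Its call was also lost with the sex term, at a log2 fold change of -0.33. Ret, the GDNF family co-receptor, lost its call when replicate 2 or 3 of either group was left out (adjusted p between 0.133 and 0.186, edgeR). With the replicate block Ret lost its call too (adjusted p = 0.0671, edgeR). Gfra1, the GDNF receptor subunit, and Trpa1, the irritant channel, did not pass (log2 fold changes -0.20 and -0.36, adjusted p = 0.440 and 0.333, edgeR). With the sex term 8 of the 11 were lower and none was higher.

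Of the 3 genes listed as held down by Runx1, Calca was higher and Oprm1 and Met did not pass, beside 1.69% of all genes tested that were higher. Calca, which encodes the peptide CGRP of peptidergic nociceptors, had 12762, 13425 and 12254 normalized counts in the controls and 18320, 16645 and 18218 in Tlx3cko DRGs (log2 fold change 0.47, adjusted p = 0.00144, edgeR). Oprm1, the mu-opioid receptor gene, and Met, the hepatocyte growth factor receptor gene, had log2 fold changes of 0.26 and -0.68 with standard errors of 0.32 and 0.44. No difference was detected for either gene. Oprm1 had 286, 93 and 279 normalized counts in the controls and 185, 289 and 315 in Tlx3cko DRGs. Without control replicate 2, its lowest library, the log2 fold change of Oprm1 was -0.107 (standard error 0.20). Met had 13 to 56 normalized counts.

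**Figure D4:**
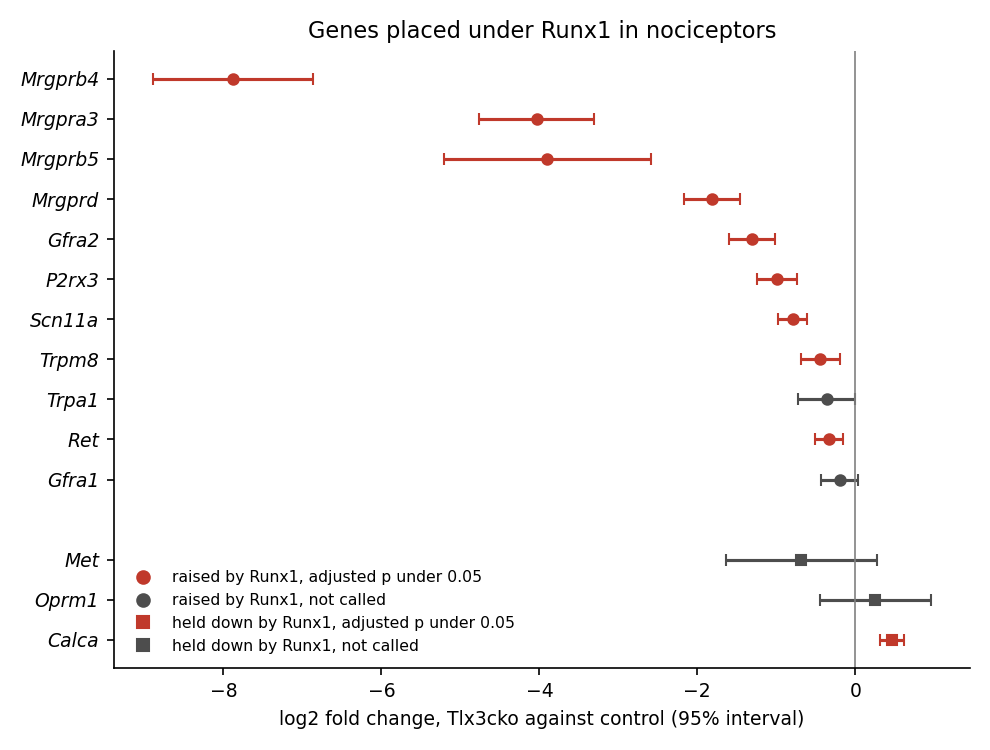
Log2 fold changes of Tlx3cko against control DRGs (horizontal axis) with 95% intervals from edgeR, red where the adjusted p is under 0.05. Circles show 11 genes listed as raised by Runx1 and squares show 3 listed as held down by it. The genes listed as raised lie at or left of -0.20, and Calca at 0.47 lies to the right of 0. The fitted value of Mrgprb4 depends on the small count added by the tool, since its Tlx3cko libraries hold 2 counts in all.

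Trk receptors and genes that Pou4f1, Isl1, Klf7, Prdm12 and Runx3 are known to act on formed a list of 6 genes. Of these, Pvalb and Scn10a were higher, none was lower and 4 did not pass. Among all genes tested, 1.69% were higher and 2.56% lower past the threshold. The median log2 fold change of the list was 0.27, beside -0.00 for all genes tested. Pvalb, the calcium-binding protein of proprioceptors, had 1101, 885 and 819 normalized counts in the controls and 1581, 1285 and 1347 in Tlx3cko DRGs (log2 fold change 0.59, adjusted p = 0.0116, edgeR), a call lost without control replicate 2 or control replicate 3 (adjusted p = 0.0592 and 0.0557, edgeR). Scn10a had 23104, 25297 and 24223 normalized counts in the controls and 31111, 35126 and 31741 in Tlx3cko DRGs (log2 fold change 0.43, adjusted p = 0.00281, edgeR). The part of the Cre allele, which only the Tlx3cko mice carry, in this rise was not tested. Ntrk2 and Ntrk3, the genes of TrkB and TrkC, had log2 fold changes of 0.15 and 0.27 and did not pass (adjusted p = 0.484 and 0.293, edgeR). Ngfr, the low-affinity neurotrophin receptor gene, did not pass either, at -0.13 (adjusted p = 0.575, edgeR).

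Levels were compared between the factors only per length, as CPM (normalized counts scaled to library size) per kilobase of merged exons. In control DRGs Prdm12 was the most abundant at 103 ± 5.72 (SD, n = 3), followed by Tlx3 at 89.6 ± 7.56, Tlx2 at 74.5 ± 13.1 and Pou4f1 at 65.4 ± 2.48. Tlx2 and Pou4f1 did not differ beyond their spread, since their ranges over the libraries overlapped. Cbfb at 45.6, Klf7 at 40.6, Drgx at 30.4 and Isl1 at 16.2 came next, and Runx1 at 8.06 ± 1.28 and Runx3 at 2.91 ± 0.368 were the lowest. In Tlx3cko DRGs Tlx2 at 69.7 ± 4.77 stood above Tlx3 at 65.1 ± 6.15, with overlapping ranges, and the rest of the order was the same, although the ranges of Klf7 and Drgx now overlapped. Per length of the longest transcript Drgx at 47.5 stood above Klf7 at 36.4 in Tlx3cko DRGs with their ranges apart, and the ranges of Tlx3 and Tlx2 overlapped in control DRGs too. Per kilobase of merged exons in Tlx3cko DRGs, Runx1 at 3.75 ± 0.338 was close enough to Runx3 at 3.33 ± 0.231 for their ranges to overlap. The merged exons of Runx1 span 12025 bases and its longest transcript 5861. Per length of the longest transcript Runx1 was at 16.5 in control and 7.69 in Tlx3cko DRGs and stayed apart from Runx3 in both groups.

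The genes whose pattern over the 6 libraries was most like that of Tlx3 were found among 5972 genes with at least 500 normalized counts on average, by the root mean square difference of log2 values centred on each gene's control mean. They were Nrn1, which encodes the neurite growth protein neuritin, Sirpa, a signal regulatory receptor, and 1700037H04Rik, with differences of 0.053, 0.055 and 0.061 log2 units. Nrn1 had 5250, 5989 and 5613 normalized counts in the controls and 4648, 3966 and 3998 in Tlx3cko DRGs. For Runx1 they were 5730480H06Rik, Syt7, a synaptotagmin, and Cpne3, a copine, at 0.188, 0.198 and 0.201 log2 units. Syt7 had 5404, 5607 and 6174 normalized counts in the controls and 2900, 2901 and 2704 in Tlx3cko DRGs. The likeness was closer for Tlx3 than for Runx1, and the reason was not tested. Control replicate 1 of Runx1 was higher than its other controls.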

How the data were processed

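DRG RNA was read as 150 bp paired ends in 3 libraries per genotype, and the authors deposited raw read counts per gene without normalization. The submitters' processing notes name STAR 2.5.2a and the build mm10. The counting program, the annotation release and the strand setting are not given in the sources used here. Gene models came from GENCODE M21 on GRCm38, the same assembly as mm10. The samples were grouped by the genotype label.

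The 20006 genes with at least 10 counts in total were scaled by TMM factors, and edgeR 4.0.16 in R 4.3.3 gave the quasi-likelihood test, with Benjamini-Hochberg adjustment over all genes tested and a threshold of 0.05. Standard errors of edgeR fold changes are the fold change divided by the root of F. Those of the ratios within a library come from the variances of the log2 ratios in the 2 groups. Ratios within a library were tested with an exact permutation test in SciPy 1.17.1. Library totals ranged from 11458299 to 18775628 counts, with a common biological coefficient of variation of 13.8%. Replicates differed by more than sampling noise (chi-square per degree of freedom 4.32 to 10.1) and were kept as separate samples. Near-identical stretches (at least 100 bases at 98% identity, blastn 2.17.0+) were found only between Runx1, Prdm12 or Klf7 and the genes on the other strand that overlap them.

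All 10 factors are named, with up to 6 called genes of each list by size of change, up to 3 abundant genes of each list that did not pass, and the 3 genes closest in pattern to Tlx3 and to Runx1. Some genes of these lists are not reported here and are left out of their counts. The factors and lists were chosen with earlier results of these data known. Alternatives covered DESeq2 1.42.0, limma-voom (limma 3.58.1), other normalizations and filters, a replicate block, a sex term and each library left out.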

Additional observations from a re-analysis of the deposited data

How the results depend on the processing

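Runx1 stayed lower past the threshold under all 14 alternatives, and Tlx3 kept its direction in all 14 and its call in 10. The number of genes past the threshold was 851; it was 1529 without a filter on low counts, 487 with the sex term, and between 488 and 938 with each library left out (530 without control replicate 2, and 488 and 512 without replicates 2 and 3 of Tlx3cko). Of the 10 factors, 1 was called with the sex term and between 1 and 2 with each library left out; of the relatives, 8 were called and between 5 and 7 with each library left out (5 without control replicate 2, Tlx3cko replicate 1 or replicate 3). Of the genes placed under Runx1, 10 were called, 8 with the replicate block, 9 with the sex term and between 8 and 10 with each library left out. Of the Trk receptor list, 2 genes were called and between 1 and 3 with each library left out (1 without control replicate 2 or 3). Tlx3 was the factor lost when control replicate 2, or replicate 2 or 3 of Tlx3cko, was left out. The sign turned with the sex term for Tlx2 (0.23), Ehmt2 (0.0262) and Oprm1 (-0.0903). With each library left out it also turned for Isl1 (-0.12 to 0.14, -0.0007 without control replicate 3), Ehmt2 (-0.0785 to 0.0297) and Oprm1 (-0.107 to 0.477); the cause was not tested. Per length of the longest transcript, control levels were 16.5 for Runx1, 3.75 for Runx3, 54.8 for Cbfb, 68.8 for Pou4f1, 25.6 for Isl1 and 42.5 for Drgx. The replicate numbers did not pair the samples (correlations of deviations -0.13, -0.02 and -0.11 for numbers 1, 2 and 3), and with the replicate block 770 genes and the same 2 factors passed. Runx3, with at most 310 counts per library, had the widest interval of the 10 factors.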
